A study of Mus musculus with 6 samples.

Results

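The cytosolic ribosomal protein genes were taken by symbol: Rpl or Rps followed directly by a digit, without the S6 kinase genes, copies ending in -ps, and paralogs with l after the number. Among probe sets that named a single gene this gave 41 genes of 18193 named on the array, through 92 probe sets, and where a gene had several, the one with the highest mean of log2 values over the 6 arrays stood for it. Of these, 20 encode large subunit proteins and 20 small subunit proteins. Rps19bp1 met the symbol rule too, although it encodes a binding protein of Rps19 and not a subunit of the ribosome. A filter on dim probe sets, set over all 6 arrays, left 40 genes for testing; Rps16 did not pass it.

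RNA came from whole pineal glands of newborn 129 mice at postnatal day 0. Wildtype animals and animals homozygous for a Neurod1 knockout gave 3 pools each, of 3 glands a pool, and each pool was run on 1 Affymetrix array. All mice lived in cycles of 12 h light and 12 h darkness, the glands were taken by day, and all RNA went through a single round of amplification before labelling. Neurod1 is a proneural factor of the basic helix-loop-helix family that acts in neurons, retina and endocrine pancreas. Neither the deleted segment nor the sex of the animals is given in the labels. The 3 pools of a group were separate biological samplings per the series' design text, so p-values measure the spread between pools.

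Each ribosome is built from a small subunit, which reads the mRNA, and a large subunit, which joins the amino acids. The proteins of both are needed in equal numbers, and their mRNAs are among the most abundant of a growing cell. Most of these mRNAs begin with a run of pyrimidines, the 5' terminal oligopyrimidine (TOP) motif, through which growth signals over mTOR control their translation. The genes have many processed pseudogenes of nearly the same sequence, so a probe set can pick up RNA of more than 1 copy; 14 of the 40 probe sets used end in _x_at and 2 in _s_at, the array maker's marks for probes that also match other transcripts.

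RefSeq sequences around the start of transcription (assembly GRCm38.p6) were held for 36 of the 41 genes, with 42 listed starts; Rpl7, Rpl8, Rps14, Rps20 and Rps29 had no entry. The windows printed here run from 40 bases before the start to 15 bases from the start onward, on the gene's strand. They show the 3 genes that stood highest and the 3 that stood lowest in knockout pool 1 among the tested members. They also show 2 genes with a clear TOP run. Capitals mark a pyrimidine run at the start (a C followed by at least 5 C or T, 6 bases or more in all, that begins within 10 bases of the start) and the letters CCGGAAG, the core of ETS family sites.
Rpl41: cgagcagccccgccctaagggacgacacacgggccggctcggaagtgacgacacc
Rps10: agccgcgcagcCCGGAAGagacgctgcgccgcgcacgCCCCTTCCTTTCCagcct
Rps15: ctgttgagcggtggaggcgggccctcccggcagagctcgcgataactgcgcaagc
Rpl12: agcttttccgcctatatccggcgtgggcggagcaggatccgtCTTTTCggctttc
Rpl27a: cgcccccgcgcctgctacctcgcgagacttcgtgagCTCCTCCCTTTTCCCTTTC
Rps6: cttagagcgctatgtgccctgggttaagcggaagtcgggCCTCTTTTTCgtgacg
Rpl38: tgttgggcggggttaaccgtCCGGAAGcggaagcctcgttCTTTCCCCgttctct
Rpl35: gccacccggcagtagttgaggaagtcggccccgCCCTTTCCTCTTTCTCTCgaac

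These windows lie at chr10:128549154-128549208 (- strand) for Rpl41, chr17:27635230-27635284 (- strand) for Rps10, chr10:80292391-80292445 (+ strand) for Rps15 and chr2:32961672-32961726 (+ strand) for Rpl12. Those of Rpl27a, Rps6, Rpl38 and Rpl35 lie at chr7:109519155-109519209 (+ strand), chr4:86857353-86857407 (- strand), chr11:114668540-114668594 (+ strand) and chr2:39005117-39005171 (- strand). The run is 20 bases long in Rpl27a, where it goes past the end of the window, 18 in Rpl35, 13 in Rps10, 10 in Rps6, 8 in Rpl38 and 6 in Rpl12. The windows of Rpl41 and Rps15, which stood among the highest in knockout pool 1, hold no such run at the listed start.

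Over all listed starts of a gene, 20 of the 36 genes held the pyrimidine run (55.6%), against 23.9% of the 10307 tested genes and 21.9% of the 27025 genes with an entry. In the whole 300-base entries, from 250 bases before to 50 after the start, CCGGAAG on either strand was found for 17 members (47.2%), against 18.4% of tested genes. The Sp1 letters GGGCGG were found for 20 members (55.6%, against 66.4% of tested genes), TATAAA for 4 (11.1%, against 9.54%), the E-box CACGTG for 4 (11.1%, against 11.1%), the NRF1 motif for 4 (11.1%, against 10.8%) and the YY1 letters AAGATGGC for 3 (8.33%, against 4.92%). All were searched on both strands, except for the pyrimidine run, which was read on the gene's strand. A match describes letters and not a bound factor.

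The target gene was checked first. Neurod1 had signals of 9027, 9300.6 and 7519.4 in wildtype pools 1 to 3 and 390.2, 523.9 and 122.5 in knockout pools 1 to 3, so the groups did not overlap. By limma the adjusted p was 0.0362 at a log2 difference of −4.67 (SE 0.45). It was the 1 gene past the threshold among 12797 tested, and leaving out 1 pool moved its limma adjusted p between 0.00561 and 0.621. The call was lost without any 1 of the wildtype pools and without knockout pool 1. Pineal markers were present: 14 of 14 on the array passed the filter, with summed signals of 66448.5 to 96745.4 in wildtype and 48120.9 to 100136.9 in knockout pools.

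No ribosomal protein gene differed between the genotypes by the test. At a limma adjusted p under 0.05, 0 of 40 members were higher in knockout (0% of all genes tested) and 0 were lower (0.00781% of all genes tested). At an unadjusted p under 0.05 the count was again 0 of 40, beside 3.34% of all genes (1.98% higher and 1.37% lower in knockout), and the smallest member p was 0.183. With the pool number as a block it was 0 of 40 as well, beside 6.24% of all genes. By the probe set used for each gene, the groups overlapped for every one of the 40. Among all genes tested, 5.77% were higher and 4.33% lower in knockout without overlap. The mean log2 values of 35 members were higher in knockout (87.5%, against 53.2% of all genes); higher and lower means are meant on this scale from here on. The median log2 difference was 0.26 (0.03 over all genes). These differences were smaller than their errors for most members: the median SE was 0.49 for ribosomal protein genes and 0.34 for all genes tested.

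Without knockout pool 1 the median SE of the members was 0.28. That pool held the highest signal of the 6 pools for 37 of 40 members (92.5%, against 32.6% of all genes tested). As a deviation, that is log2(signal + 38.6) minus the mean of the same over the 6 arrays, the member median was 1.19 in knockout pool 1. It was −0.21, 0.00 and −0.33 in wildtype pools 1, 2 and 3, and −0.25 and −0.54 in knockout pools 2 and 3. Over all genes tested the 6 medians lay between −0.07 and 0.17, with the highest also in knockout pool 1. The 6 deviations of a gene add to 0, so a high value in 1 pool lowers the rest.

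In linear units the members' median signal was 13429, 14056 and 8697 in wildtype pools 1 to 3, and 31967, 9039 and 8056 in knockout pools 1 to 3. The 92 member probe sets made up 5.62% of all signal on the array of knockout pool 1, and 1.79% to 2.64% on the other arrays. Relative to the median of the other 5 pools, a member's signal in knockout pool 1 was 2.83-fold at the median, and over 2-fold for 33 members. It ranged from 1.04-fold for Rpl12 to 7.72-fold for Rpl41. In knockout pool 1, 28 members lay over 1 log2 unit above their mean (5.53% of all genes tested did).

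**Figure D1:**
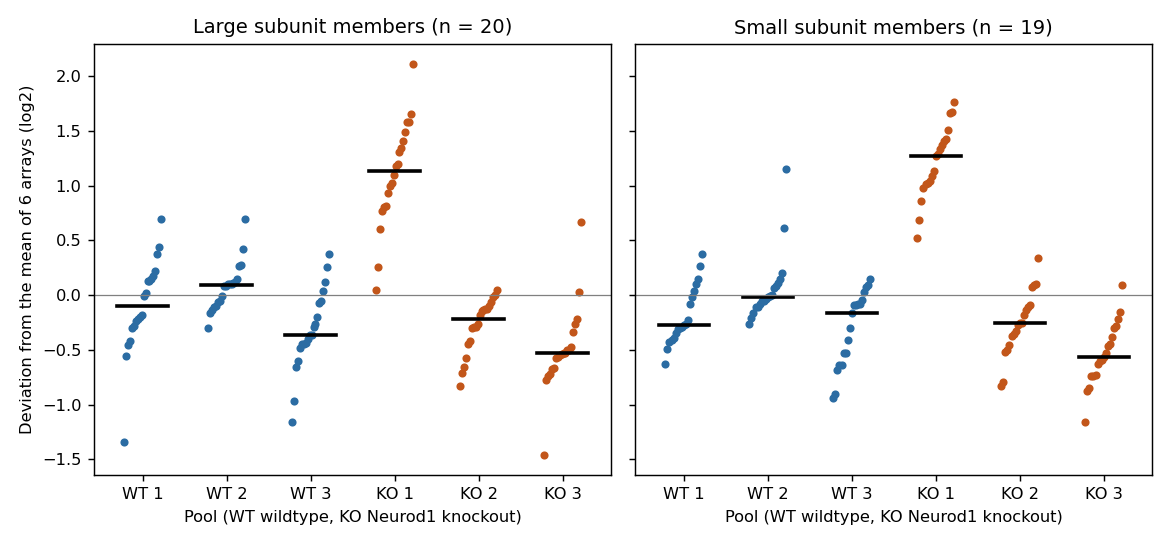
Deviation of each tested ribosomal protein gene from its mean over the 6 arrays (log2, vertical axis) in each pool, for the 20 large subunit and 19 small subunit genes; each point is a gene and the black bar is the median. The medians of knockout pool 1, 1.14 and 1.27, stand above those of the other pools, while single points overlap (Rpl12 lies at 0.05 in knockout pool 1).

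Both subunits stood high in that pool. The 20 large subunit genes had a median deviation of 1.14 in knockout pool 1 and the 19 small subunit genes 1.27, and 18 genes of each had their highest signal there. The median knockout minus wildtype difference was 0.22 for the large subunit and 0.30 for the small. In the plot of deviations by pool, wildtype pool 2 had the second highest and knockout pool 3 the lowest median in both panels.

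Among the brightest large subunit genes, Rpl38, which is known for its part in the translation of Hox mRNAs in the embryo, had signals of 18935.3, 19199.9 and 17629.7 in wildtype and 60739.4, 19602.8 and 13059.8 in knockout. The 3 wildtype pools lay close together, knockout pool 2 lay just above them, knockout pool 3 below all and knockout pool 1 far above. The log2 difference was 0.43 (SE 0.52).

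Rpl35, whose protein sits near the exit of the peptide tunnel, had 18004.9, 22554.9 and 18562.9 in wildtype and 53988.8, 15634.9 and 14544.9 in knockout. Here knockout pools 2 and 3 lay below every wildtype pool while knockout pool 1 lay above all. Rpl10a, studied in mice for ribosomes that differ in makeup, had 15622.2, 20742.8 and 16101.6 in wildtype and 33760, 17640.8 and 16560.7 in knockout, so that its groups interleaved apart from knockout pool 1. Rpl13a, which has a role outside the ribosome in silencing inflammatory mRNAs, reached 61736.1 in knockout pool 1 and 16841.2 to 29761.5 in the rest. Rpl7 reached 50970.1, against 17354.9 to 24864.2.

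Rpl41, the gene of the smallest ribosomal protein, had the widest range relative to its level, 7.72-fold in knockout pool 1 against the median of the other 5 pools. Its signals were 16878.2, 20162.8 and 6352.5 in wildtype and 53975.3, 6994.6 and 4486.6 in knockout. Knockout pool 1 was the highest, and the other 2 knockout pools lay with or below wildtype pool 3. Over 3 pools a group the log2 difference was −0.12 (SE 0.86), although the linear mean was higher in knockout (21819 ± 27877) than in wildtype (14465 ± 7215; SD, n = 3).

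Rpl11, whose free protein binds Mdm2 when ribosome assembly is disturbed, had 12694.4, 7912.8 and 7567.2 in wildtype and 29304.1, 5951.6 and 6544.1 in knockout. Rpl22, a large subunit protein that binds RNA and matters for T cell development, had 12823.5, 13358 and 14213.1 against 44050.9, 9298.6 and 10143.7. For both genes knockout pools 2 and 3 lay below every wildtype pool, and knockout pool 1 lay above. The log2 differences were 0.20 (SE 0.59) for Rpl11 and 0.26 (SE 0.56) for Rpl22.

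The largest positive differences over 3 pools a group were those of Rpl37a and Rps26. Rpl37a, a zinc finger protein gene of the large subunit, had 6272.4, 8004 and 5289.4 in wildtype and 26498.5, 8300.1 and 5902 in knockout (log2 difference 0.76, SE 0.53). Rps26, a small subunit protein at the mRNA exit channel, had 8267.3, 8142.2 and 4551.6 against 27819.7, 9388.5 and 5641.9 (0.75, SE 0.56). These were the 2 members with a higher value in knockout within each pool number, 1, 2 and 3, yet knockout pool 3 lay inside the wildtype range in both. Without knockout pool 1 the differences came to 0.12 and 0.11. A dimmer probe set of Rpl37a, given below, did not overlap between the groups.

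Among small subunit genes, Rps18, Rps3a1 and Rps29 were the brightest in knockout pool 1, at 75996.6, 75143.7 and 75167.6. Elsewhere they lay between 26071 and 41542.7, between 27140.1 and 36490.4, and between 25805.6 and 34435.2. Rps4x, the X-linked gene of a small subunit protein, had 22119.8, 28582.6 and 23629.2 in wildtype and 56463.5, 23431.5 and 17567.7 in knockout.

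Rps20 reached 60200.5 in knockout pool 1 and Rps24, a gene mutated in some families with Diamond-Blackfan anaemia, 69013.9. Rps19, the gene most often mutated in that anaemia, had 12394.6, 13076.8 and 15983.8 in wildtype and 39388.9, 8734.4 and 13615.6 in knockout. Its knockout pools spanned the whole range, with pool 2 the lowest and pool 1 the highest of the 6. The log2 difference was 0.28 (SE 0.51).

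Rps3, of the mRNA entry channel, had 14214.7, 15944.6 and 9921.4 in wildtype and 38088.1, 11872.5 and 8615.2 in knockout. Rps10 had 10771.9, 9675.5 and 6232.7 against 33068.3, 7484.5 and 5279.9, and Rps15 had 7883.9, 7068 and 5064.1 against 23463.7, 5324.6 and 4375.3. After Rpl41 (2.12), Rps10 and Rps15 had the highest deviations in knockout pool 1, at 1.76 and 1.67. In Rpl41, Rps10 and Rps15 knockout pool 3 was the lowest of the 6.

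Among tested members, the 3 lowest deviations in knockout pool 1 were those of Rpl12 (0.05), Rpl27a (0.26) and Rps6 (0.52), all dimmer than most members. Rpl12, of the stalk base of the large subunit, had 333.5, 268.6 and 289.6 in wildtype and 292.4, 282.1 and 228.3 in knockout. By this probe set the spread was narrow and no pool stood apart. Rpl27a had 1007.5, 2825 and 3399.5 against 3134.3, 2500.1 and 4169.2, with wildtype pool 1 far below the rest. Rps6, the small subunit protein that S6 kinases phosphorylate, had 638.2, 655.7 and 853.9 against 1160.1, 1018 and 602.7, with knockout pools 1 and 2 above wildtype. Brighter probe sets that name several genes, given below, were highest in knockout pool 1 for Rpl12, Rpl27a and Rps6.

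Rps27, a zinc finger protein of the small subunit, had the most negative difference, −0.29 (SE 0.53). Its signals were 126.3, 527.6 and 200.6 in wildtype and 372.1, 104.8 and 170.5 in knockout, so wildtype pool 2 was the highest. Rpl39, of the peptide tunnel, had 436, 661.5 and 742.6 against 1073.6, 537 and 422.7, with a log2 difference of 0.06 (SE 0.37). Rps2 and Rpl4, the other 2 members named for lower means beside Rps27, Rpl12 and Rpl41, had log2 differences of −0.06 (SE 0.59) and −0.01 (SE 0.46). Like that of Rpl41, their linear means were higher in knockout, at 14117 against 13636 for Rps2 and 17559 against 15702 for Rpl4.

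Several dim members were also measured by brighter probe sets that name more than 1 gene and were therefore outside the rule. These were chosen after their values were seen. A probe set for Rps27 and Rps27rt had 8293.4, 10504.8 and 10043.5 in wildtype and 29574.9, 8737.6 and 8577.9 in knockout. A probe set for Rps6 and the copy Rps6-ps4 had 23138, 30051.3 and 21508.2 against 53060.8, 27607.6 and 18235.6. A probe set for Rps16, its copy Rps16-ps2 and an uncharacterised locus had 24507.3, 34641.8 and 35205.5 against 72825.9, 32858.8 and 28848.5, whereas the only single-gene probe set of Rps16 read 2.1 to 6.7. A probe set for Rpl12 and the predicted gene Gm11425 had 1903.5, 1410.9 and 748.3 in wildtype and 5547.7, 737.7 and 935.5 in knockout. A brighter one for Rpl12 and predicted genes had 6182.7, 8980.7 and 6147.1 against 18012.7, 13130.9 and 4387.6. A probe set for Rpl27a and predicted genes had 10698.5, 10338.2 and 10520.4 against 31512.1, 9010.1 and 10530.7. In all of these the highest pool was knockout pool 1, unlike in the single-gene probe sets of Rps27, Rps16, Rpl12 and Rpl27a.

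Altogether 109 probe sets named several genes with at least 1 ribosomal protein gene among them, and they added 28 symbols, among them Rpl3, Rpl5, Rpl10 and Rpl24. Of these probe sets 97 named nothing but ribosomal protein genes, their copies and predicted genes with Gm symbols, and 91 of the 97 passed the filter. Knockout pool 1 was the highest of the 6 in 83 of the 91, and the median deviation there was 1.19.

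The members' passing probe sets were grouped by their mean signal in the other 5 pools. Over 10000, knockout pool 1 was the highest of the 6 in 35 of 35 (22 genes), with a median deviation of 1.33. Between 1000 and 10000 it was the highest in 26 of 30 (19 genes, median 1.51). Under 1000 it was so in 10 of 19 (15 genes, median 0.52). Several probe sets can read 1 gene, so they are not separate cases. Tested genes other than members were grouped by the same limits, with 1 probe set a gene. Over 10000 their median deviation in knockout pool 1 was −0.12, with 89 of 327 highest there. It was −0.07 between 1000 and 10000 (842 of 3654 highest there) and 0.25 under 1000 (3205 of 8776).

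Probe sets of a gene did not always move together. The 44 passing member probe sets that were not used for their gene had a median deviation of 1.33 in knockout pool 1, and 34 of them were highest there. For Rps3, a probe set other than the one described above had 2633.2, 4625 and 5190.9 in wildtype and 2134.5, 4279.9 and 5764.2 in knockout, with knockout pool 1 the lowest of the 6. For Rpl41, another probe set lay between 260.2 and 410.9 in all pools and was also lowest in knockout pool 1. A dimmer Rpl37a probe set had 129.3, 70.7 and 285.5 in wildtype and 711, 515.8 and 388.2 in knockout, without overlap. A dim one of Rps24 had 98.4, 67.1 and 127.4 against 264, 227 and 141.9, also without overlap. Both were picked after their values were seen, and the other single-gene probe sets of these genes overlapped between the groups. The probe sets read different stretches of a gene, and which transcripts each one measured was not tested.

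**Figure D2:**
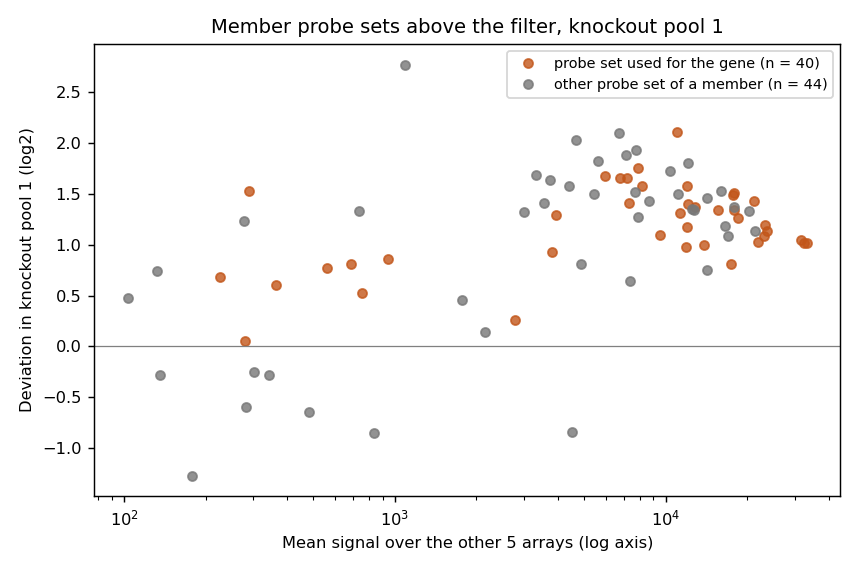
Deviation in knockout pool 1 (log2, vertical axis) against mean signal over the other 5 arrays (log axis) for the 84 member probe sets above the filter; filled orange points are the 40 probe sets used for a gene and grey points are the 44 others. Points over a mean signal of 10000 all lie above 0, and points under 1000 spread to both sides of 0.

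Pools of the same number carry the same date in the labels, so the comparison was also made within each number. Within number 1 the median knockout minus wildtype difference of the members was 1.40 (0.11 over all genes), and 39 of 40 were higher in knockout (55.7% of all genes). Within number 2 it was −0.33 (0.00 over all genes), with 33 members lower in knockout (49.7% of all genes). Within number 3 it was −0.23 (−0.06 over all genes), with 32 members lower (54.4% of all genes). The median was thus above 0 within number 1 and below 0 within numbers 2 and 3.

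Without knockout pool 1 the median log2 difference was −0.29 (−0.02 over all genes), and 34 of 40 members had a lower mean in knockout (51.4% of all genes). Without both pools numbered 1 it was −0.29 as well, with 35 lower (51.9% of all genes) and 0 of 40 at an unadjusted p under 0.05 (5.65% of all genes). Knockout pools 2 and 3 lay below all wildtype pools for 4 members, Rpl11, Rpl19, Rpl22 and Rpl35 (15.3% of all genes tested). Rpl41 was the 1 member with an unadjusted p under 0.05 without knockout pool 1 (9.07% of all genes tested), with a log2 difference of −1.20 (SE 0.48, limma unadjusted p = 0.0382, adjusted p = 0.546). Of the 28 members named by rule, 17 changed sign without knockout pool 1. With quantile normalization between arrays the member median was −0.03 and 17 of 40 were higher, so the direction of the median over 3 pools a group also turned with the scaling. Centring each array on its median moved the median of all genes from 0.03 to −0.11 and that of the members from 0.26 to 0.12.

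**Figure D3:**
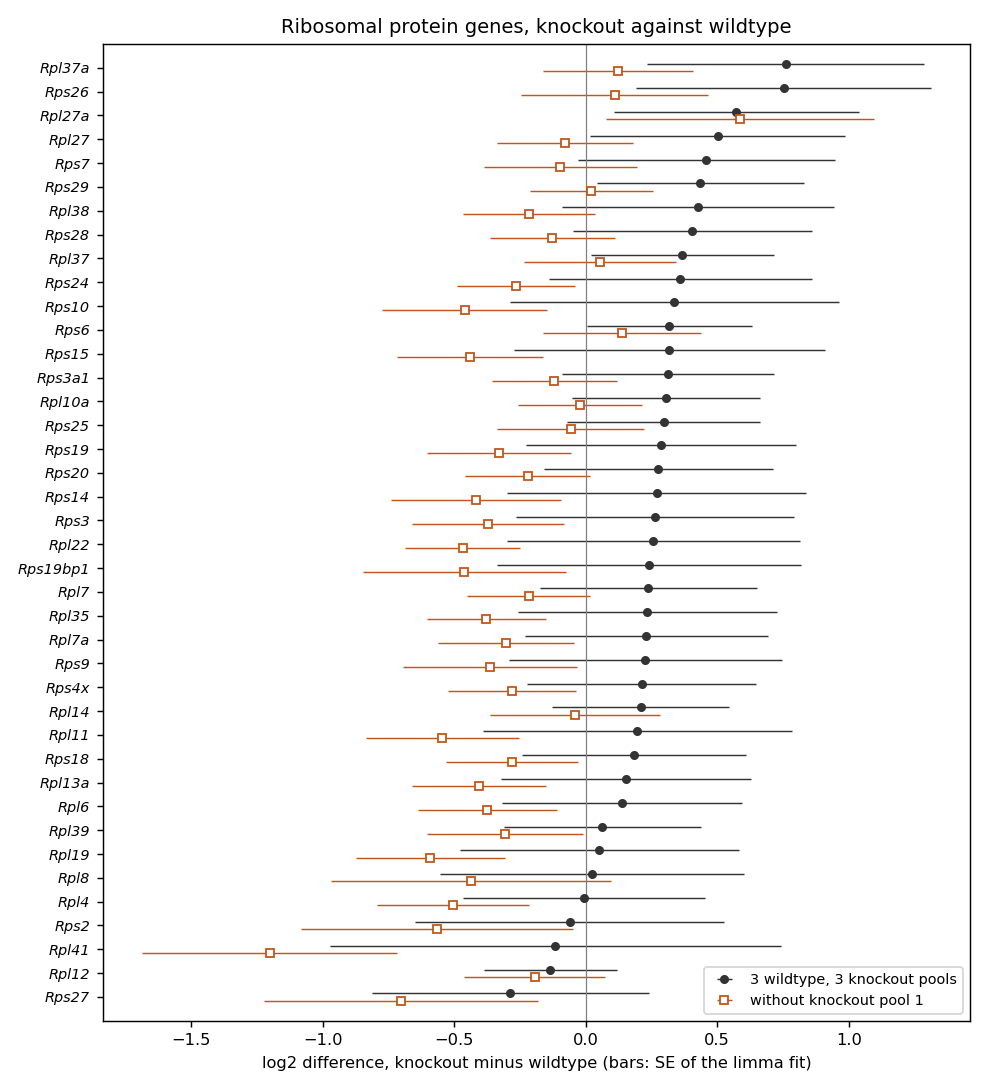
Log2 difference, knockout minus wildtype (horizontal axis), for the 40 tested genes over 3 wildtype and 3 knockout pools (filled points) and without knockout pool 1 (open squares); bars are the SE of the limma fit. Most filled points lie right of 0 and most open squares left of it, with medians of 0.26 and −0.29.

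The spread between knockout pools was wider than between wildtype pools for 37 of the 40 members (61.0% of all genes tested). The median SD of the log2 values was 0.97 among knockout pools and 0.30 among wildtype pools, against 0.41 and 0.33 over all genes. In this spread knockout pool 1 stood apart, with a member median deviation of 1.19, against −0.25 and −0.54 in knockout pools 2 and 3. At the low end, knockout pool 3 had the lowest signal of the 6 for 25 members (25.7% of all genes tested), knockout pool 2 for 6, wildtype pool 3 for 5 and wildtype pool 1 for 4. Within a pool the SD over genes of the deviation was 0.42 in knockout pool 1 and 0.27 to 0.37 in the others.

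Members with and without the TOP run at the start both stood high in knockout pool 1. The 20 tested members with a run had a median deviation there of 1.14 (0.05 to 1.76), and the 15 without one had 1.40 (0.81 to 2.12). The 17 members with CCGGAAG had 1.10 and the 18 without had 1.28. These are descriptions over genes of the same arrays and carry no test. A run counts only if it begins within 10 bases of a listed start, so a member without one can still have a TOP mRNA. The window of Rpl4, counted as without, holds ctttccttttcct further upstream. The low values of Rpl12, Rpl27a and Rps6, all with a run, were read by dimmer probe sets than those given above that name several genes. The part of probe set brightness in these medians was not tested.

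Ribosomal proteins whose symbols fall outside the rule were also highest in knockout pool 1. Rplp2, an acidic stalk protein, had 13375.3, 10779.6 and 7522.2 in wildtype and 36372.1, 9083.9 and 6706.1 in knockout. Rpsa, of the small subunit and also a laminin receptor, had 15858.6, 19775.2 and 16542.1 against 33893, 15216.6 and 14810.3. Fau, from which a small subunit protein is cut, had 3497.6, 4204.9 and 2042.1 against 8683.1, 2858.1 and 1901.7. With the stalk protein Rplp0, all 4 were highest in knockout pool 1 (median deviation 1.12), 3 had higher and 1 a lower mean in knockout (median difference 0.20), and none passed the test. Without knockout pool 1 all 4 had lower means (median −0.40); with 1 pool left out the median ran from −0.40 to 0.53.

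Of the 5 tested paralogs with l after the number, 4 were highest in knockout pool 1 (median deviation 0.89), and 3 had higher and 2 lower means in knockout (median difference 0.26, and −0.42 without knockout pool 1). Rpl22l1, the paralog of Rpl22, had 14323.5, 16833.5 and 12848.3 in wildtype and 43805.2, 15704.5 and 10153.4 in knockout. Rps27l, a p53 target gene in other tissues, had 1913.1, 2553.3 and 2984.9 against 7638.9, 1757.3 and 1871.5. Both were highest in knockout pool 1 and lowest in knockout pools 3 and 2. The exception was Rpl39l, highest in knockout pool 2 at 201.4, against 82.9 to 185.7 elsewhere.

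Other parts of the translation machinery stood high in knockout pool 1 to a smaller extent. Among 21 translation factors and other genes of TOP mRNAs, 12 had higher and 9 lower means in knockout (median difference 0.01), 13 were highest in knockout pool 1 and the list's median deviation there was 0.65. Without knockout pool 1 the median difference was −0.25, with 15 of 21 lower, and with 1 pool left out it ran from −0.25 to 0.21. Single genes described from this list and from those that follow were among the ones of smallest p in their list, so they need not be typical of it. Nap1l1, a histone chaperone with a TOP mRNA, was lower in all 3 knockout pools than in any wildtype pool (15362, 10909.6 and 11584.3 against 10867.4, 6364.2 and 7377.9; log2 difference −0.64, SE 0.33), without passing the test.

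Among 66 genes of ribosome biogenesis, which make and fold the rRNA, 22 had higher and 44 lower means (median difference −0.19), and the median deviation in knockout pool 1 was 0.22, with 23 highest there. Nop58, of the box C/D particles that methylate rRNA, had 976, 1415.4 and 776.2 in wildtype and 537.9, 882.9 and 389.9 in knockout. Ubtf, the RNA polymerase I factor, had 6898.4, 7841.1 and 5324.1 against 9452.7, 12832.7 and 8552.5, without overlap but not past the test (log2 difference 0.61, SE 0.32). In the plot of list medians the assembly genes have their highest median in wildtype pool 1 (0.29) and not in knockout pool 1.

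The list of growth signalling to the ribosome had 10 higher and 11 lower means among 21, with a median deviation of −0.08 in knockout pool 1. Rps6ka6, a p90 S6 kinase, had 911, 913.9 and 759.9 in wildtype and 558.9, 546.1 and 272.3 in knockout (log2 difference −0.91, SE 0.32). Mycn, known to drive ribosomal genes in growing neural cells, had 4014, 3629.1 and 2988.2 against 1515.5, 2605.6 and 2132.1 (−0.78, SE 0.32). The groups did not overlap for either gene, and both had a limma adjusted p of 0.998.

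Of 10 genes of the p53 axis, which free ribosomal proteins act on through Mdm2, 8 had higher and 2 lower means in knockout (median 0.15) and none passed. Mdm2 had 1045.1, 1214.9 and 770.7 in wildtype and 1190.5, 1774.1 and 1792.4 in knockout, and was not highest in knockout pool 1.

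**Figure D4:**
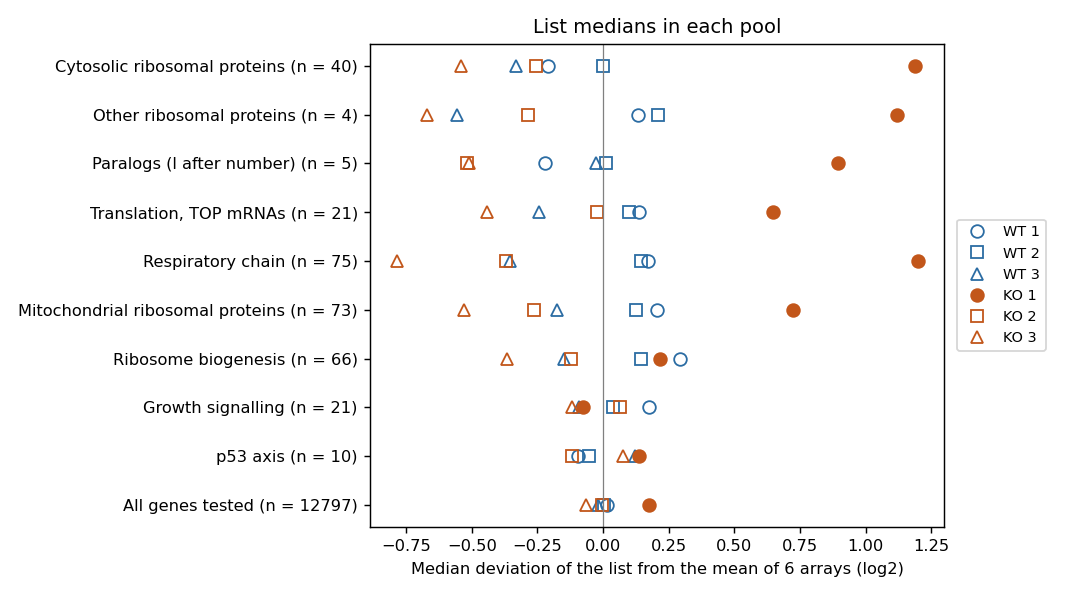
Median deviation of each gene list from the mean of the 6 arrays (log2, horizontal axis) in each of the 6 pools; circles, squares and triangles are pools 1, 2 and 3, blue is wildtype, orange is knockout, and the filled circle is knockout pool 1. The filled circle stands apart at 1.19 for the cytosolic ribosomal proteins and at 1.20 for the respiratory chain, and lies at 0.17 for all genes tested.

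Genes of the mitochondria stood high in the same pool. The 75 tested genes of the respiratory chain and ATP synthase had a median deviation of 1.20 in knockout pool 1, and 63 of them were highest there. The median was 0.17, 0.14 and −0.35 in wildtype pools 1 to 3 and −0.37 and −0.79 in knockout pools 2 and 3. The 73 mitochondrial ribosomal protein genes had a median of 0.72 in knockout pool 1, with 58 highest there. Between the genotypes the median difference was 0.01 for the respiratory chain and −0.08 for mitochondrial ribosomal proteins. Without knockout pool 1 it was −0.54 (70 of 75 lower, 21 at an unadjusted p under 0.05 in limma) and −0.50 (67 of 73 lower, 16 at an unadjusted p under 0.05), beside the 9.07% of all genes given above; 0 genes passed the adjusted threshold. Without knockout pool 3 it was 0.38 and 0.22.

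Ribosomal protein genes are short, and gene length moved with the deviation in knockout pool 1. By the RefSeq table of GRCm38.p6, the members' median genomic span was 3310.5 bases, against 23957 for the 12731 tested genes with a span. In the tenth of genes with the shortest spans, up to 4244 bases, the median deviation in knockout pool 1 was 0.46, and it was 0.45 in the 1246 of them that were not members. With the genes in 10 equal groups by span, it was 0.21 in the fifth and 0.01 in the longest group. All 40 members lay in the 3 groups of shortest span, 28 of them in the first, with a median of 1.19. The part of gene length in the members' values was not tested.

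Markers of other cells that a dissected gland can hold were read beside these values. Choroid plexus markers, 9 of 10 on the array above the filter, had summed signals of 16255.3 to 93547.6 in wildtype and 13470.8 to 107871 in knockout pools. Their median deviation was 1.08 in knockout pool 1, 1.18 in wildtype pool 3 and 0.76 in knockout pool 2. The ribosomal protein medians in these pools were 1.19, −0.33 and −0.25. The choroid plexus list shares Otx2 with the pineal list. Otx2 had 12786.1, 14137.8 and 15177.7 in wildtype and 9617.8, 12143.8 and 10194.2 in knockout. It made up most of the choroid plexus sum in wildtype pool 1 and knockout pool 3, the lowest of each group, so the sums understate the spread of the other markers. Macrophage and microglia markers, 17 of 18 above the filter, had summed signals of 14319 to 16276.5 in wildtype and 17561.7 to 23967.1 in knockout, and a median deviation of 0.52 in knockout pool 1 with 10 highest there. Meningeal fibroblast markers (15 of 15; 122196.2 to 143344.8 in wildtype and 155528.1 to 182182.3 in knockout) had a median of 0.05 in knockout pool 1.

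Male germ cell markers (9 of 15) had summed signals of 526.8 to 4733 in wildtype and 640 to 30200.8 in knockout, with medians of −0.15 in knockout pool 1 and 1.93 in knockout pool 2. Of 17 red cell markers listed, 11 were named by a single-gene probe set and 5 passed the filter. These 5 had summed signals of 6526.2 to 8108.6 in wildtype and 4763.2 to 7799.6 in knockout. Their median deviation was −0.01 in knockout pool 1. Cycling cell markers (19 of 20) had sums of 25492.5 to 34184.5 and 20840.3 to 24929.7, with a median of 0.21 in knockout pool 1. Tfrc alone made up the larger part of the red cell sum in every pool, with 5570, 5764.7 and 4298.6 in wildtype and 2382.9, 6407.9 and 4021.4 in knockout. No marker above the filter was listed at 0 in any pool. The part of these cells in the ribosomal protein values was not tested, and in RNA of whole glands fewer cells of a type and less RNA per cell cannot be told apart.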

How the data were processed

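Probe set signals were taken as deposited: linear fluorescence intensities of 45037 probe sets on 6 arrays. The submitters' processing notes name GCOS; the signal algorithm was not given there. The 2% trimmed mean of each deposited intensity column lay between 499.5 and 499.96. Scanner files and detection calls were not analysed here.

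Values were used as log2(signal + 38.6), the offset being the 20th percentile of all values, which understates changes of dim genes. The platform annotation gave the gene names (34945 probe sets named 1 gene, 932 several, 9160 none). Probe sets in the lowest 40% by mean log2 value, a cut that corresponds to a signal of about 105, were left out, which left 12797 genes. The genotypes were compared by limma 3.58.1 under R 4.3.3 (lmFit, then eBayes with trend), two-sided, with Benjamini-Hochberg adjustment over all genes and 4 residual degrees of freedom. With 3 pools against 3 an exact permutation test cannot go below p = 0.1, and the number of arrays limits the precision. The fit was checked on simulated data.

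Same-numbered pools share a date in the labels. Their deviations, here from the mean of each genotype group, correlated across genes by 0.32, 0.25 and 0.36. Between numbers the correlation was at most −0.04. The deviations of a group then add to 0, so positive values for same numbers push the others below 0. A fit with the number as a block was an alternative. The others changed the offset, normalization, filter, probe sets, variance trend and pools. The members and gene lists were chosen with earlier results of these data known. Named members were taken from the tested ones. They were the 6 brightest of each subunit, the 5 of smallest p in each direction, and the 3 highest and 3 lowest in knockout pool 1. A list of well studied genes was added. For translation, ribosome biogenesis, growth signalling and the p53 axis, up to 3 genes of each list were named, by smallest p.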

Additional observations from a re-analysis of the deposited data

How the results depend on the processing

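The count of ribosomal protein genes called was 0 in all 17 alternatives run. The block by pool number changed no call: 0 members had an unadjusted p under 0.05 (6.24% of all genes tested), and the lowest member adjusted p in limma was 0.768. The members' median log2 difference ran from −0.29 to 0.56 when 1 pool was left out, the lowest without knockout pool 1 and the highest without knockout pool 3. Their median deviation in knockout pool 1 lay between 1.07 and 1.21 with 1 other pool left out, and was 0.74 with quantile normalization, 1.05 with arrays centred on the median, and 1.09 both with the mean of all probe sets and without _x_at and _s_at probe sets (35 members).

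The count of genes called over all genes was 0 with no offset (Neurod1 adjusted p = 0.0737 in limma), with quantile normalization (0.0504) and without both pools numbered 1 (0.813), and lay between 0 and 1 with 1 pool left out. Cycling cell markers, with a median difference of −0.34, had −0.27 with an offset at the 40th percentile, −0.48 with centred arrays, −0.18 with the mean of probe sets, −0.17 without _x_at and _s_at probe sets, and −0.40 to −0.084 with 1 pool left out. Centring gave −0.33 for ribosome biogenesis and −0.21 for growth signalling. The paralogs had −0.60 without both pools numbered 1. With 1 pool left out the median ran from −0.33 to −0.040 for ribosome biogenesis, from −0.10 to 0.084 for growth signalling, from 0.11 to 0.34 for the p53 axis, from −0.60 to −0.30 for pineal markers and from −0.78 to −0.32 for red cell markers. The causes were not tested.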
